A study of Mus musculus with 6 samples.

Results

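Slit1, Slit2 and Slit3 encode the secreted Slit ligands, Robo1 and Robo2 encode receptors for them, and Evl encodes an Ena/VASP protein that promotes actin filament growth at the leading edge of migrating cells. These 6 genes were taken by symbol from a table of 56826 rows, of which 23473 carry RefSeq gene names, and each symbol matched 1 row. They were measured by RNA sequencing of tumor endothelial cells (TECs) from Lewis lung carcinoma (LLC) tumors, a mouse lung cancer line grown under the skin of syngeneic mice, in 3 Ctrl and 3 NICeCA libraries. The comparison asks what activation of Notch signaling in the endothelium does to the TEC transcriptome. All mice were C57BL/6, male by the study's methods and 8 weeks old by the labels. NICeCA mice carry a Rosa26 cassette in which a floxed stop holds back the Notch1 intracellular domain (NIC), and Cdh5-CreERT, driven from the promoter of the VE-cadherin gene, which removes the stop in endothelium after tamoxifen. Ctrl mice were labelled wild type. The sources used here do not say whether they carried the Cre or received tamoxifen. Cells were taken on beads that bind CD31, with a stated purity of over 90%, and the methods give day 14 after inoculation for these tumors whereas the labels mention several days. CD31 is also found on platelets and on some leukocytes.

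Slits are cut and bind the extracellular domain of Robo receptors with the help of heparan sulfate on the cell surface. Bound Robo recruits adaptors, kinases and GTPase-activating proteins that steer small GTPases, and through them actin. The pathway is best known for repelling growing axons at the midline. In vessels, Slit2 acting on Robo1 and Robo2 promotes endothelial migration and sprouting, and Robo4 is a receptor made mainly by endothelium. Introns of these genes also carry microRNA (miRNA) precursors, Slit2 and Slit3 those of miR-218 and Evl that of miR-342. Robo1 is a known target of miR-218, which places a ligand gene and its receptor in 1 circuit.

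The mature miRNAs are shown because they are what each host intron carries, with the seed (bases 2 to 8) in capitals, from RefSeq on GRCm38.p6. Mir218-1 and Mir218-2 give the same 5p sequence, so its origin from Slit2 or from Slit3 cannot be read from the sequence.
mmu-miR-218-5p: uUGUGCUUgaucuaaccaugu
mmu-miR-342-5p: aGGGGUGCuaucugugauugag
mmu-miR-342-3p: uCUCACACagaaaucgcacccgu
The Mir218-1 precursor (chr5:48223942-48224051) lies in intron 16 of the 39-exon transcript Slit2-217. Mir218-2 (chr11:35616816-35616925) lies in intron 14 of the 36-exon transcript Slit3-201. Mir342 (chr12:108658620-108658718) lies in intron 3 of Evl-201, an intron of 20189 bases. All 3 are on the strand of their host. The precursors Mir218-1 and Mir218-2 are each 110 bases long and have the same base at 71 positions when laid side by side without gaps.

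The complement of the miR-218-5p seed, AAGCACA, was searched on the sense strand of the 3′ untranslated region (UTR) of each gene. The transcript used had the longest coding sequence among those with an annotated 3′ UTR, which for Evl was Evl-201. The complement was present in Robo1, Robo2 and Slit2. The sites are shown with their flanks, the 7 bases that pair with the seed in capitals.
Robo1, chr16:73045348-73045354: tttggttttaaAAGCACAatcactaaact
Robo2, chr16:73895359-73895365: tatttggtgatAAGCACAaatctctactc
Robo2, chr16:73893033-73893039: acggcagacccAAGCACAgcttctttcag
Slit2, chr5:48304543-48304549: aatactagcagAAGCACAtctacaagagc
The letters occur in 12.4% of 21022 3′ UTRs, and in 18.4% of those of a length like that of Robo1, 34.6% of those like Robo2 and 12.4% of those like Slit2. They were not found in the 3′ UTRs of Slit1, Slit3, Evl, Robo4 or Myc. The seed match of miR-342-3p, GTGTGAG, was found once, in Slit2, and that of miR-342-5p, GCACCCC, in none of the members. These matches are letters in a window, and no binding was measured.

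The 6 genes were expressed at very different levels. Evl averaged 20.8 ± 3.8 RPKM (reads per kilobase of transcript, scaled to the library's reads; SD, n = 3) in Ctrl and 20.0 ± 1.9 in NICeCA, above 88.7% of the RefSeq rows. The other 5 had means under 1 RPKM over the 6 libraries, above 16.2% (Robo2) to 46.4% (Slit3) of the rows. In Ctrl the order of mean RPKM was Evl, Slit2, Slit3, Slit1, Robo1 and Robo2, and only Slit2 and Slit3 had overlapping ranges among neighbours. In NICeCA it was Evl, Slit3, Slit2, Robo1, Slit1 and Robo2, in which Slit2 overlapped Robo1 and Robo1 overlapped Slit1. Slit3 thus stood above Slit2 without overlap in NICeCA, and Robo1 had moved from below Slit1 to a range that overlapped it.

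**Figure D1:**
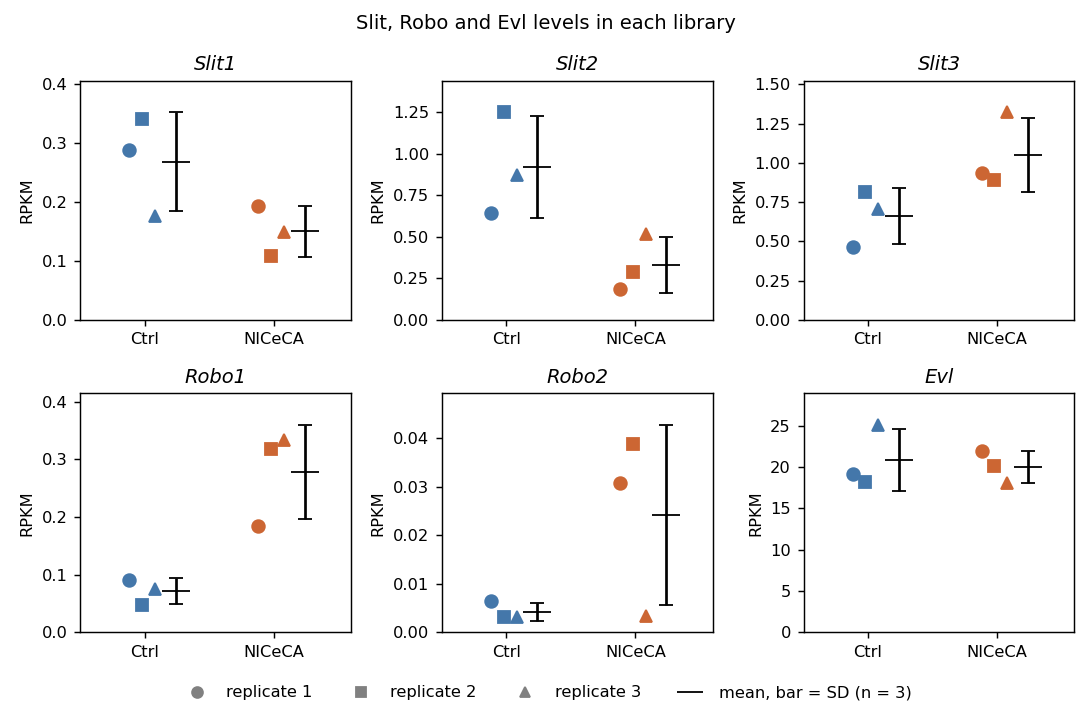
RPKM of the 6 genes (vertical axes, each from 0 and on its own scale) in Ctrl and NICeCA libraries; symbols mark replicate numbers, and the black bar is the mean with its SD (n = 3). The groups do not overlap for Slit2, Slit3 and Robo1, and the 3 Robo2 values of Ctrl lie at or under 0.00636 RPKM.

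Slit2 was lower in NICeCA. Slit2 (chr5:47983155-48305778, plus strand, GRCm38) had 0.644, 1.25 and 0.870 RPKM in Ctrl replicates 1 to 3 and 0.189, 0.291 and 0.518 in NICeCA. These values rest on 201, 398 and 271 reads in Ctrl against 55, 82 and 154 in NICeCA. All 3 NICeCA libraries lay below all 3 Ctrl libraries, and the mean was 2.77-fold lower (0.922 ± 0.31 against 0.332 ± 0.17 RPKM; SD, n = 3). The fold is on the RPKM scale. By an exact two-sided permutation test of the 6 libraries p was 0.1, the smallest that 3 against 3 allow.

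Slit3, the other host of miR-218, went the opposite way in level. Slit3 (chr11:35121456-35708507, plus strand) had 0.466, 0.814 and 0.708 RPKM in Ctrl and 0.938, 0.890 and 1.32 in NICeCA, from 91, 162 and 138 reads against 171, 157 and 246. The NICeCA libraries were all above the Ctrl libraries in RPKM, by a gap of 0.0759 RPKM, and the ratio of the means was 1.58 (exact permutation p = 0.1). Slit1 (chr19:41600257-41743856, minus strand), the ligand best known from the nervous system, had 0.288, 0.340 and 0.176 RPKM in Ctrl and 0.194, 0.108 and 0.149 in NICeCA, from 20 to 71 reads a library. Its groups overlapped, since NICeCA 1 was above Ctrl 3 (exact permutation p = 0.2).

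The summed RPKM of the 3 Slit genes overlapped between groups, at 1.40, 2.41 and 1.75 in Ctrl and 1.32, 1.29 and 1.99 in NICeCA. The shares of Slit2 and Slit3 in this sum did not overlap. Slit2 was 46.1%, 52.0% and 49.6% of it in Ctrl and 14.3%, 22.6% and 26.0% in NICeCA. Slit3 was 33.3%, 33.8% and 40.4% in Ctrl and 71.0%, 69.1% and 66.5% in NICeCA. The ratio of Slit2 to Slit3, which no scaling of a library can change, was 1.38, 1.54 and 1.23 in Ctrl and 0.201, 0.327 and 0.392 in NICeCA. Slit2 was therefore the more abundant of these ligands in every Ctrl library and Slit3 in every NICeCA library. Since Slit2 was lower and Slit3 higher in every NICeCA library, a ratio without overlap followed from those values and adds no separate observation. In a bulk sample, fewer cells that make a transcript and less of it per cell cannot be told apart.

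**Figure D2:**
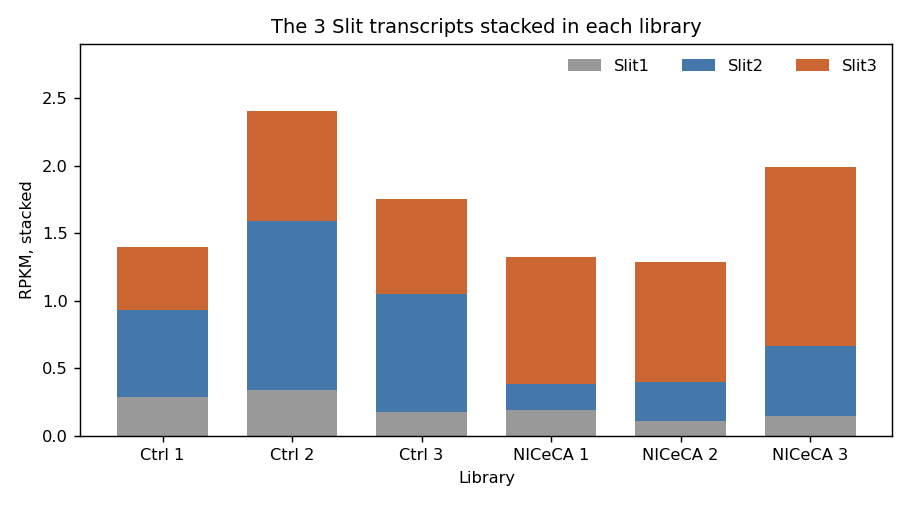
RPKM of Slit1, Slit2 and Slit3 stacked in each of the 6 libraries (vertical axis in RPKM from 0). Slit2 takes 46.1% to 52.0% of the stack in Ctrl and 14.3% to 26.0% in NICeCA.

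Robo1 was higher in NICeCA. Robo1 (chr16:72663149-73046100, plus strand) had 0.0914, 0.0465 and 0.0745 RPKM in Ctrl and 0.185, 0.318 and 0.334 in NICeCA. The reads behind these values were 27, 14 and 22 in Ctrl and 51, 85 and 94 in NICeCA. Every NICeCA library was above every Ctrl library, and the ratio of the means was 3.94 (0.279 ± 0.082 against 0.0708 ± 0.023 RPKM; SD, n = 3; exact permutation p = 0.1). With exact 95% Poisson intervals, which cover counting error only, the highest Ctrl library reached up to 0.133 RPKM and the lowest NICeCA library down to 0.137. The intervals treat reads as independent. By the study's methods the libraries were sequenced paired-end. If mates of a fragment were counted separately, the intervals are too narrow and this gap may close. The same intervals of the nearest libraries overlapped for Slit2 (Ctrl 1 down to 0.558 RPKM, NICeCA 3 up to 0.606) and for Slit3 (Ctrl 2 up to 0.950, NICeCA 2 down to 0.756).

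Robo2 was near the limit of detection. Robo2 (chr16:73892306-74410912, minus strand) had 2, 1 and 1 reads in Ctrl and 9, 11 and 1 in NICeCA, that is 0.00636, 0.00312 and 0.00319 RPKM against 0.0306, 0.0387 and 0.00334. NICeCA 3 lay among the Ctrl libraries, and 3 reads are worth 0.00936 to 0.0106 RPKM for this transcript, so NICeCA 1 and 2 stood above that level and the other 4 libraries below it. No difference between the groups was called. The related receptor genes Robo3 and Robo4 lie beside each other on chromosome 9. Robo3, a receptor of commissural axons, had 6 to 30 reads a library and overlapping groups. Robo4 had 21.2, 7.51 and 10.5 RPKM in Ctrl and 11.4, 14.5 and 17.2 in NICeCA, far above Robo1 in every library. Its groups overlapped, with Ctrl 1 the highest and Ctrl 2 the lowest of all 6 libraries. Robo1 was 0.429%, 0.614% and 0.708% of the summed RPKM of Robo1 and Robo4 in Ctrl and 1.59%, 2.14% and 1.90% in NICeCA, without overlap.

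The groups overlapped for Evl, the 1 member well above the detection limit. Evl (chr12:108554720-108688515, plus strand) had 19.1, 18.2 and 25.1 RPKM in Ctrl and 21.9, 20.1 and 18.1 in NICeCA, from 1813 to 2643 reads a library. All NICeCA values lay within or just under the Ctrl range. The difference was -0.04 on the log2(RPKM + 1) scale (SE 0.15; limma adjusted p = 0.864), and it took either sign when scaling or a library was changed. Its relatives were not called either. Enah (Mena) differed by 0.00 (SE 0.19, limma adjusted p = 0.992) and Vasp by -0.04 (SE 0.12, limma adjusted p = 0.860), and both changed sign without some libraries, Vasp also under trimmed mean scaling. The comparison with other profiles took 8235 RefSeq genes whose mean was 5 RPKM or more. The 3 whose log2(RPKM + 1) profile over the 6 libraries was closest to that of Evl were 1810030O07Rik, Wdr26 and Syngr2, with root mean square differences of 0.0213, 0.0335 and 0.0376 after centring. The antisense neighbour Degs2 shares 278 exonic bases with Evl at its 3′ end. At the 5′ end, the span of the antisense gene Gm16596 covers 494 exonic bases of Evl. Gm16596 had 6.18, 4.00 and 3.41 RPKM in Ctrl and 5.47, 7.86 and 7.70 in NICeCA, with overlap. The sources used here do not say whether reads were assigned by strand.

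The planned test, limma on log2(RPKM + 1), covered the 12320 RefSeq rows whose mean was 1 RPKM or more and called 5.88% of them higher and 7.68% lower in NICeCA at an adjusted p under 0.05. Only Evl of the 6 genes passed this filter and it was not called, at an unadjusted p of 0.787. Without the filter all 6 were tested among 22072 rows, of which 1.18% were called higher and 0.476% lower. No member was called, and 4 had an unadjusted limma p under 0.05. The share of all 22072 rows with such a p was not computed, so this count has no background here. The adjusted limma p was 0.0602 for Robo1, 0.0866 for Slit2, 0.189 for Slit1, 0.198 for Slit3 and 0.435 for Robo2. A pseudocount of 1 flattens differences between values under 1 RPKM, so a fit by limma voom on the reads recovered from the RPKM values, over the 15186 rows with a mean of at least 10 reads, was added after the data had been seen. It called 5.15% of the rows higher and 7.25% lower. Robo2, with a mean of 4.17 reads, was not tested there.

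By limma voom Robo1 was higher in NICeCA by 1.96 on the log2 scale (SE 0.41, adjusted p = 0.0300), and Slit2 was lower, at -1.53 (SE 0.40, adjusted p = 0.0434). Slit3 (0.68, SE 0.28, limma voom adjusted p = 0.132), Slit1 (-0.81, SE 0.39, adjusted p = 0.182) and Evl (-0.04, SE 0.16, adjusted p = 0.871) were not called. Both calls depend on single libraries. The adjusted limma voom p of Robo1 was 0.0681 without Ctrl 2, 0.0596 without NICeCA 1, 0.122 without NICeCA 2 and 0.0529 without NICeCA 3. That of Slit2 was 0.0831 without Ctrl 2, 0.0651 without Ctrl 3, 0.152 without NICeCA 1 and 0.160 without NICeCA 2, and with trimmed mean scaling it was just over the threshold. The signs of both held in all 6 of these fits, over 1.69 to 2.23 for Robo1 and -1.92 to -1.19 for Slit2. Among the rows of this fit, 15.7% had all NICeCA libraries above all Ctrl libraries in RPKM and 23.5% had them all below. Of the 5 members in it, Slit3 and Robo1 were of the first kind and Slit2 of the second.

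**Figure D3:**
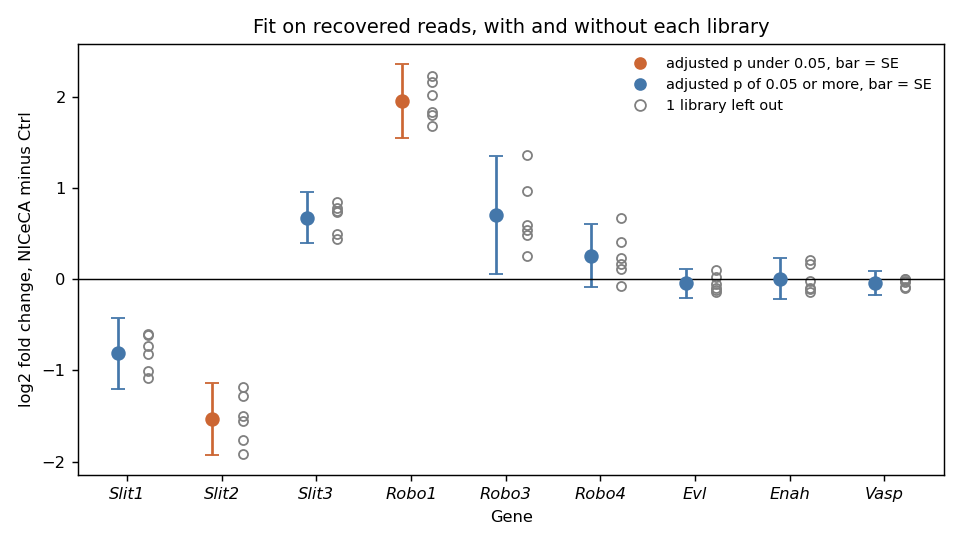
log2 fold change in NICeCA against Ctrl (vertical axis) by limma voom on recovered reads, for members and their relatives; filled points are the fit on 6 libraries with its SE, and open circles the 6 fits that each leave out 1 library. Robo1 stays above 0, at 1.69 to 2.23, and Slit2 below, at -1.92 to -1.19.

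The miRNA precursors themselves could not be followed, since the RNA was fragmented for these libraries and no small RNA library was analysed here. Mir218-1 was listed at 0 in all 6 libraries, Mir218-2 had 1 read in Ctrl 1 and 0 in the others, and a row for Mir342 was not analysed here. Myc, which drives proliferation and which the study examined downstream of miR-218, had 31.9, 73.1 and 45.3 RPKM in Ctrl and 17.4, 23.7 and 47.9 in NICeCA. The NICeCA 3 value lay above those of Ctrl 1 and Ctrl 3, and the difference of -0.78 on the log2(RPKM + 1) scale (SE 0.40, limma adjusted p = 0.197) was not called. By quantitative PCR on TECs and immunofluorescence of tumor sections, the study reports lower MYC under Notch activation.

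Transcript models from the FANTOM3 collection give separate values for stretches inside the members. In Slit2, the model D230018J08, of which 2042 bases are exonic in Slit2 at its first exon, had 1.27, 2.82 and 1.54 RPKM in Ctrl and 0.341, 0.534 and 1.13 in NICeCA. It was lower in NICeCA without overlap, as the whole Slit2 row was, and it shares reads with that row. In introns, 3 sense models of Slit2 that do not overlap each other, covering 9122 bases, held 12, 23 and 8 reads in Ctrl and 4, 4 and 8 in NICeCA. In Slit3, 4 such models over 11357 bases held 18, 16 and 8 reads in Ctrl and 14, 35 and 38 in NICeCA. In Robo1, 8 models over 13899 bases held 0, 4 and 0 reads in Ctrl and 0, 6 and 10 in NICeCA. The intronic groups overlapped or touched in all 3 genes, and the summed intronic reads were 43 against 16 for Slit2, 42 against 87 for Slit3 and 4 against 16 for Robo1. Among RefSeq rows with a mean of at least 10 reads, 23.5% lay all lower in NICeCA, and the share over FANTOM3 rows was not computed. In Evl, 1 of 4 sense models did not overlap between groups. That model, D930010J12, of which 61 bases are exonic in Evl, had 3.91, 3.75 and 4.73 RPKM in Ctrl and 2.76, 2.59 and 2.51 in NICeCA, all lower, from 188 to 379 reads. The other 3, which are intronic, overlapped between groups, as the whole Evl row did. They cover a common stretch and share reads, so they are not separate observations. Of these D130067P18 had 0.345, 0.528 and 0.304 RPKM in Ctrl and 0.0665, 0.145 and 0.348 in NICeCA. Exonic and intronic values were not tested against each other.

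Notch acts on genes through RBPJ, which binds the letters TGGGAA. In the RefSeq promoters (300 bases around a start, GRCm38.p6, both strands), these letters were absent from the entries of Slit2, Slit3 and Robo1 and from the upstream entry of Evl. They occurred once in the downstream Evl promoter, at position -222 from its start, and once in the most upstream Robo2 promoter, at position -118. That Robo2 entry lies outside the span of the measured Robo2 row. The other Robo2 entries, among them the one nearest the start of that row, held none. Of 32851 promoters, 25.6% hold them.

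Genes that work with Slit and Robo were followed in a list of 47, all in the table, of which 40 passed the 1 RPKM filter. Of these, 1 was called higher, 7 were called lower and 32 were not called, where 5.88% and 7.68% of all rows tested were called higher and lower. The 40 genes had a median difference of -0.24 on the log2(RPKM + 1) scale against -0.05 over all genes tested. All 7 that fell are among the 17 tested adaptors, kinases and GTPase-activating proteins that act inside the cell, which had a median of -0.34. The other groups had 1 call in all. Without NICeCA 2 no gene of the list was called, and without NICeCA 1, Ctrl 1, Ctrl 2, Ctrl 3 or NICeCA 3 the counts were 1, 3, 3, 4 and 5.

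Among the proteins that bind the Robo tail, Arhgap39, the homologue of the fly Robo partner Vilse, had 4.76, 4.80 and 5.27 RPKM in Ctrl and 1.91, 1.97 and 2.03 in NICeCA. It fell by 1.00 on the log2(RPKM + 1) scale (SE 0.11, limma adjusted p = 0.00971), and it was called in 5 of the 6 fits without 1 library. Srgap2, a Slit-Robo GTPase-activating protein, had 10.5, 11.6 and 11.2 RPKM in Ctrl and 6.44, 6.35 and 6.72 in NICeCA (-0.69, SE 0.11, limma adjusted p = 0.0169), and it was called in 4 of those 6 fits. Its relative Srgap3 had 3.37, 4.44 and 3.55 against 1.18, 1.55 and 2.53 RPKM (-0.82, SE 0.20, limma adjusted p = 0.0388), and it was called in 1 of them. These 3 genes were lower in every NICeCA library. Srgap1, of the same family as Srgap2 and Srgap3, was under the 1 RPKM filter. Its means were 0.295 RPKM in Ctrl and 0.380 in NICeCA, with overlapping groups.

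Further along, Dock1, an exchange factor for Rac, fell by 0.55 on the log2(RPKM + 1) scale (limma adjusted p = 0.0322) and was called in 2 of the 6 fits without 1 library. The tyrosine kinases Abl1 and Abl2, which act with Robo on the cytoskeleton, fell by 0.47 and 0.61 (limma adjusted p = 0.0485 and 0.0413), and Clasp1, a microtubule plus-end protein, by 0.46 (limma adjusted p = 0.0493) and was called in 1 of them. Leaving out any 1 of the 6 libraries ended the calls of Abl1 and Abl2, at adjusted p from 0.0548 to 0.194 and from 0.0532 to 0.161. Nck1 (0.41), Cap1 (0.38) and Pak2 (0.19) were the 3 tested members of this group with differences above 0, and none was called.

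At the cell surface, Sdc1, which encodes the heparan sulfate proteoglycan syndecan-1, had 17.2, 36.6 and 28.2 RPKM in Ctrl and 46.3, 47.9 and 62.5 in NICeCA and was the 1 gene of the list called higher (0.96, SE 0.26, limma adjusted p = 0.0485). It was called in 1 of the 6 fits that leave out a library, with a highest adjusted p of 0.154. Cxcl12, a chemokine whose response Slit can dampen, was above Ctrl in every NICeCA library (0.67, SE 0.20) without passing the test (limma adjusted p = 0.0599). Robo4 differed by 0.23 (SE 0.33, limma adjusted p = 0.640). The 3 GTPases Rac1, Cdc42 and Rhoa had a median difference of 0.31, with 0 called by limma and 1 at an unadjusted p under 0.05. The 6 genes of the Ena/VASP group other than Evl had a median of -0.02, with 0 called and 0 at an unadjusted p under 0.05. The 7 tested enzymes that build heparan sulfate, the Slit co-factor, had a median of -0.28, with 0 called and 4 at an unadjusted p under 0.05. The share of all tested rows at an unadjusted p under 0.05 was not computed, so these counts have no background here. The fit by limma voom called 0 in each of these 3 groups too.

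**Figure D4:**
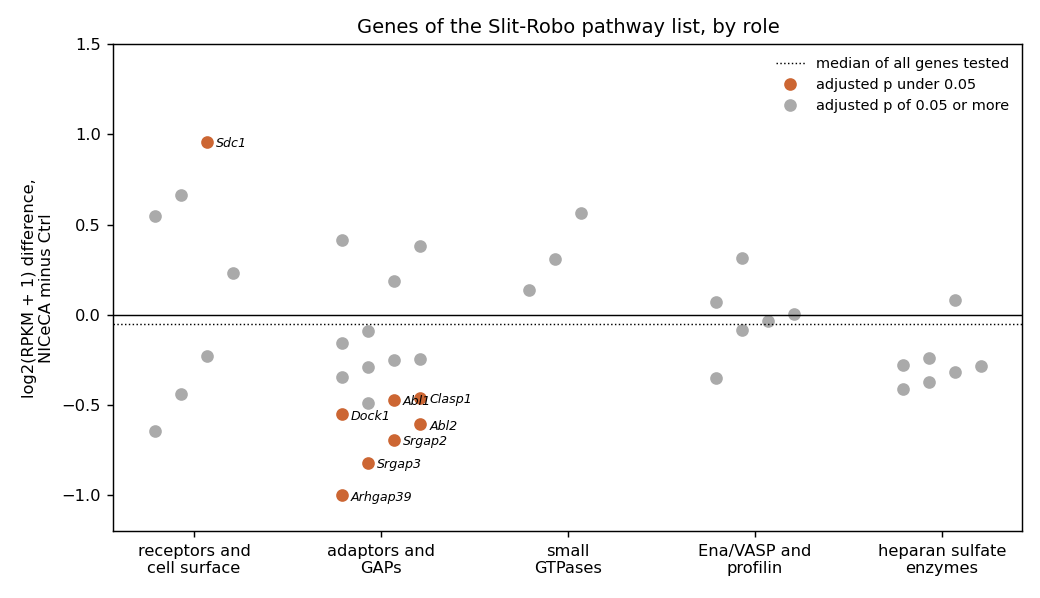
Difference in log2(RPKM + 1), NICeCA minus Ctrl (vertical axis), for the 40 tested genes of the Slit-Robo pathway list, grouped by role (horizontal axis); orange points with names have a limma adjusted p under 0.05, and the dotted line is the median over all genes tested. The 7 genes called lower are all in the group of adaptors and GTPase-activating proteins, and Sdc1 is the 1 called higher.

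The libraries held RNA of more than endothelium, and several marker lists moved between groups beside the values above. All 15 endothelial markers were above 0 in every library, with summed RPKM of 267 to 673 in Ctrl and 582 to 761 in NICeCA. All 15 had differences above 0, with a median of 0.67 on the log2(RPKM + 1) scale, and 2 of them, Flt1 and Vwf, were called higher. The most abundant, Pecam1 and Cdh5, were not called. The 10 macrophage markers summed to more than the endothelial list in each library, at 7117 to 10087 RPKM in Ctrl and 5490 to 9415 in NICeCA, led by Lyz2 and Cd14. The sums overlapped. Of the 10 macrophage markers, 4 had differences above 0 and 6 below, with a median of -0.19 on the same scale. Of them 3 (Cd68, Cd14 and Itgam) were called higher and 0 lower. The Notch1 row, which the transgene could feed, had 8.19 to 14.3 RPKM in Ctrl and 12.3 to 13.6 in NICeCA, with overlap. Total reads over all rows were 35303225 to 39823539 a library.

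Beside Slit2, which fibroblasts can make, 9 of 10 fibroblast markers were tested, of which 3 were called lower (Col3a1, Pdgfra and Lum) and 2 higher (Postn and Pdpn). Their summed RPKM was 369 to 609 in Ctrl and 309 to 485 in NICeCA, with overlap. Beside Slit3 and Robo1, the 10 pericyte and smooth muscle markers, led by Rgs5 and Tagln, summed to 38.8 to 57.4 RPKM in Ctrl and 79.9 to 151 in NICeCA, with 3 of 9 tested called higher. The platelet markers, led by Pf4 and Ppbp, summed to 113 to 196 against 1174 to 1307, with 2 of 3 tested called higher, and those of neutrophils, led by S100a9 and S100a8, to 119 to 273 against 632 to 1711, with 7 of 8. No marker of any list was at 0 in all 6 libraries. Lymphocyte sums (43.0 to 68.0 against 42.3 to 60.1, led by Cd2 and Nkg7), epithelial sums (6.86 to 13.0 against 6.61 to 8.83, led by Cdh1 and Krt18) and nerve and glia sums (5.33 to 8.70 against 5.96 to 9.50, led by Tubb3 and S100b) overlapped. The part of these cells in the values of Slit2, Slit3, Robo1 and the pathway genes was not tested.

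**Figure D5:**
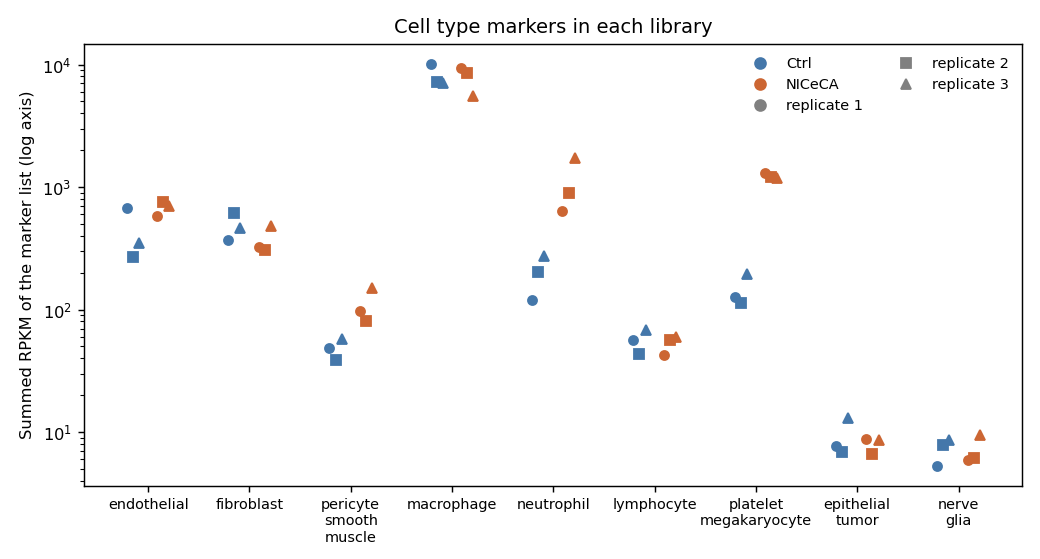
Summed RPKM of each marker list (vertical axis, log scale) in the 3 Ctrl and 3 NICeCA libraries, with symbols for replicate numbers. The pericyte and smooth muscle, neutrophil and platelet sums do not overlap between groups, and the endothelial and fibroblast sums do.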

How the data were processed

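RNA of TECs was depleted of ribosomal RNA and sequenced in 3 Ctrl and 3 NICeCA libraries. The authors aligned reads with TopHat2 (mm9 in their processing notes, whereas the positions in the table match GRCm38) and deposited RPKM values per gene, with no counts. RPKM times transcript length gave whole reads within 0.05 for 100% of values under 1000 reads, with the total over all 56826 rows as library size. The study's methods state paired-end sequencing. Values of 2 reads were more frequent than values of 1 (12026 against 6001 in FANTOM3 rows), so mates of 1 fragment may have been counted as separate reads. The intervals and the 3-read floor cover counting error only, and with mates counted separately the intervals are too narrow. FANTOM3 rows stayed out of the test. Log2(RPKM + 1) of RefSeq rows with a mean of at least 1 RPKM was tested with limma 3.58.1 (R 4.3.3; moderated with a mean-variance trend, two-sided, Benjamini-Hochberg over all rows tested). The study's methods state no test for these libraries. Single genes were given an exact permutation test. Sums, intervals and figures used Python 3.11.15 with pandas 2.3.3, scipy 1.17.1 and matplotlib 3.10.9. Seeds were matched with GENCODE vM21 transcripts.

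The fits were also run on simulated data built from the means and spreads of these libraries. The members, the pathway list, the marker lists and the tests were chosen with earlier results of these data known. Named were the 6 members, Robo3, Robo4, Enah, Vasp, Myc, the miRNA rows, up to 8 called pathway genes and the 2 largest rises and falls of that list, the 2 most abundant markers of each list, and the 3 genes nearest to Evl in profile. Nck1, Cap1, Pak2, Srgap1, Notch1, the antisense genes Degs2 and Gm16596, the called fibroblast, endothelial and macrophage markers and the FANTOM3 models were added after values were seen. The methods name 3 pairs of mice. No 2 libraries of a group differed by as little as sampling noise. Replicate numbers gave no sign of pairing, and the sources used here do not say which libraries formed the pairs. Ly6g and Trac were not analysed here.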

Additional observations from a re-analysis of the deposited data

How the results depend on the processing

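Evl, the 1 member under the planned filter, was called under none of the alternatives chosen with the test. The fits added after seeing the data called 2 members (Robo1 and Slit2) by limma voom on rows with at least 10 reads, 1 with trimmed mean scaling, and 0 to 2 without 1 library. Genes called over the whole table were 1671, and 365 with no filter, 771 with quantile normalization, 3211 with FANTOM3 rows, 621 with no filter and a pseudocount of 0.1, and 18 to 1910 without 1 library (the lowest without NICeCA 2, 34 by voom). They split 725 higher to 946 lower, and 951 to 759 with trimmed mean scaling (1033 to 770 by voom). Pathway genes called were 8, and 2 with no filter at either pseudocount, 5 with quantile normalization, 5 without the mean-variance trend, and 0 to 5 without 1 library.

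With the replicate number as a block, 536 genes of the table, 2 of the pathway list and 0 members were called, and by voom on reads 910, 5 and 2. Deviations from the group means of same-numbered libraries correlated at 0.12, -0.34 and -0.18, so the replicate numbers gave no sign of pairing. With 3 libraries a group, these values cannot tell whether the libraries were matched in another way.

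The sign of values near 0 reversed: Evl was 0.0038 with trimmed mean scaling (0.0239 by voom) and -0.14 to 0.10 without 1 library, Vasp 0.0130 (0.0331 by voom) and -0.091 to 0.0091, Enah -0.14 to 0.21 and Robo4 -0.071 to 0.68. The causes were not tested. Depth limits Robo2, Robo3 and the miRNA rows, which held 0 to 30 reads a library.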

Other observations

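The genes that cut and load miRNAs, which would act on any miRNA from the introns of Slit2, Slit3 and Evl, were followed as a list of 6. Of these, 4 were called lower by limma, where 7.68% of all rows tested were, with a median of -0.56 on the log2(RPKM + 1) scale against -0.05 over all genes tested, and in all 6 the 3 NICeCA libraries lay below the 3 Ctrl libraries, as in 23.5% of the rows with a mean of 10 reads or more. These genes are named with their values seen. Drosha, which releases precursors from host transcripts, had 5.60, 7.31 and 5.33 RPKM in Ctrl and 2.85, 2.93 and 4.27 in NICeCA (-0.71, limma adjusted p = 0.0397). Dicer1, which cuts the precursor to the mature form, had 5.57, 6.31 and 6.23 against 3.24, 3.81 and 4.12 RPKM (-0.58, limma adjusted p = 0.0329). Xpo5, the exporter of precursors, and Ago1, which holds the mature miRNA, fell by 0.63 and 0.50 (limma adjusted p = 0.0480 and 0.0433). Dgcr8 and Ago2 did not pass the test (adjusted p = 0.0902 and 0.0709). Of the 6, 0 were called without Ctrl 2, NICeCA 1 or NICeCA 2, 2 without Ctrl 3, 3 without NICeCA 3 and 4 without Ctrl 1. No mature miRNA was measured in these libraries, and the part of other cell types in these values was not tested. By quantitative PCR on TECs, the study reports higher miR-218 under Notch activation and no such rise of miR-342. Whether the lower levels of these genes changed the output of either miRNA was not tested.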
